A study of Mus musculus with 12 samples.

Results

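The cGAS-STING-TBK1 axis was followed through 9 genes, picked by symbol for their roles in cytosolic DNA sensing, out of 23667 gene symbols in the expression table. They are the sensor Cgas, the adaptor Sting1, the kinases Tbk1 and Ikbke, the transcription factor Irf3 and the regulators Enpp1, Slc19a1, Trim56 and Nlrx1. All 9 were in the table and passed the filter on low values (at least 1 TPM in at least 3 of 12 libraries), as did 13886 genes in all. TPM is a length-normalised abundance whose sum is the same in all libraries, so the read depth behind each value is unknown.

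RNA came from mammary tumours grown in mice from 4T1, a mouse mammary carcinoma line. The tumours were either CTRL or TREX1 KO, in which TREX1, an exonuclease that degrades cytosolic DNA, was depleted by CRISPR-Cas9 editing. Mice received either ICB, which is 200 ug anti-PD1 with 100 ug anti-CTLA4 given 3 times weekly for 1 week, or IgG, the matched isotype antibodies. This gave 4 groups of 3 libraries, CTRL-IgG, CTRL-ICB, KO-IgG and KO-ICB. The sources used here give neither the strain and age of the mice nor whether the KO cells were 1 clone. The depletion is described for the tumours, and none is described for the mice, whose own cells are also in the tumour RNA.

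In mammalian cells cGAS binds double-stranded DNA in the cytosol and makes the messenger cGAMP, which binds STING on the endoplasmic reticulum. STING then moves to the Golgi and recruits TBK1, which phosphorylates STING and IRF3, and IRF3 enters the nucleus to switch on interferon beta and other genes. IKK epsilon, the product of Ikbke, is the closest relative of TBK1 and can act beside it. TREX1 lies upstream of this route because it degrades the DNA that cGAS would bind. The route is controlled largely at the protein level, so transcript levels do not measure its activity.

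Several libraries stood apart. Replicates 2 and 3 of KO-IgG were nearly identical, as were replicates 1 and 2 of KO-ICB. Over genes above 300 TPM their log2 ratios had robust SDs of 0.0612 and 0.0377, and the other 10 pairs of a group had 0.216 to 0.598. Each pair was averaged and counted once, which left 10 samples, 6 CTRL and 4 KO, and results over the 12 libraries are given where they differ. KO-IgG replicate 1 held 0.661 TPM of Epcam, an adhesion molecule of the 4T1 epithelium, against 87.1 to 1239 TPM elsewhere. Other epithelial markers were low there too: Krt19 at 2.18 TPM (43.4 to 228 elsewhere), Cldn4 at 9.07 TPM (70.5 to 643) and Cdh1 at 17.6 TPM (80.7 to 198). Its Krt8 (692 TPM, 728 to 1156 elsewhere) and Krt18 (719 TPM, 962 to 1767 elsewhere) were present, though the lowest of the 12 libraries. CTRL-IgG replicate 3 and CTRL-ICB replicate 3 held 328 and 770 TPM of the skin keratin Krt5, against at most 17.2 TPM in the others. Trex1 transcript stood at 32.8 to 46.2 TPM in CTRL libraries and at 56.0 to 72.2 TPM in KO libraries, so the transcript was higher, not lower, under the KO label and gives no check of the depletion.

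**Figure D1:**
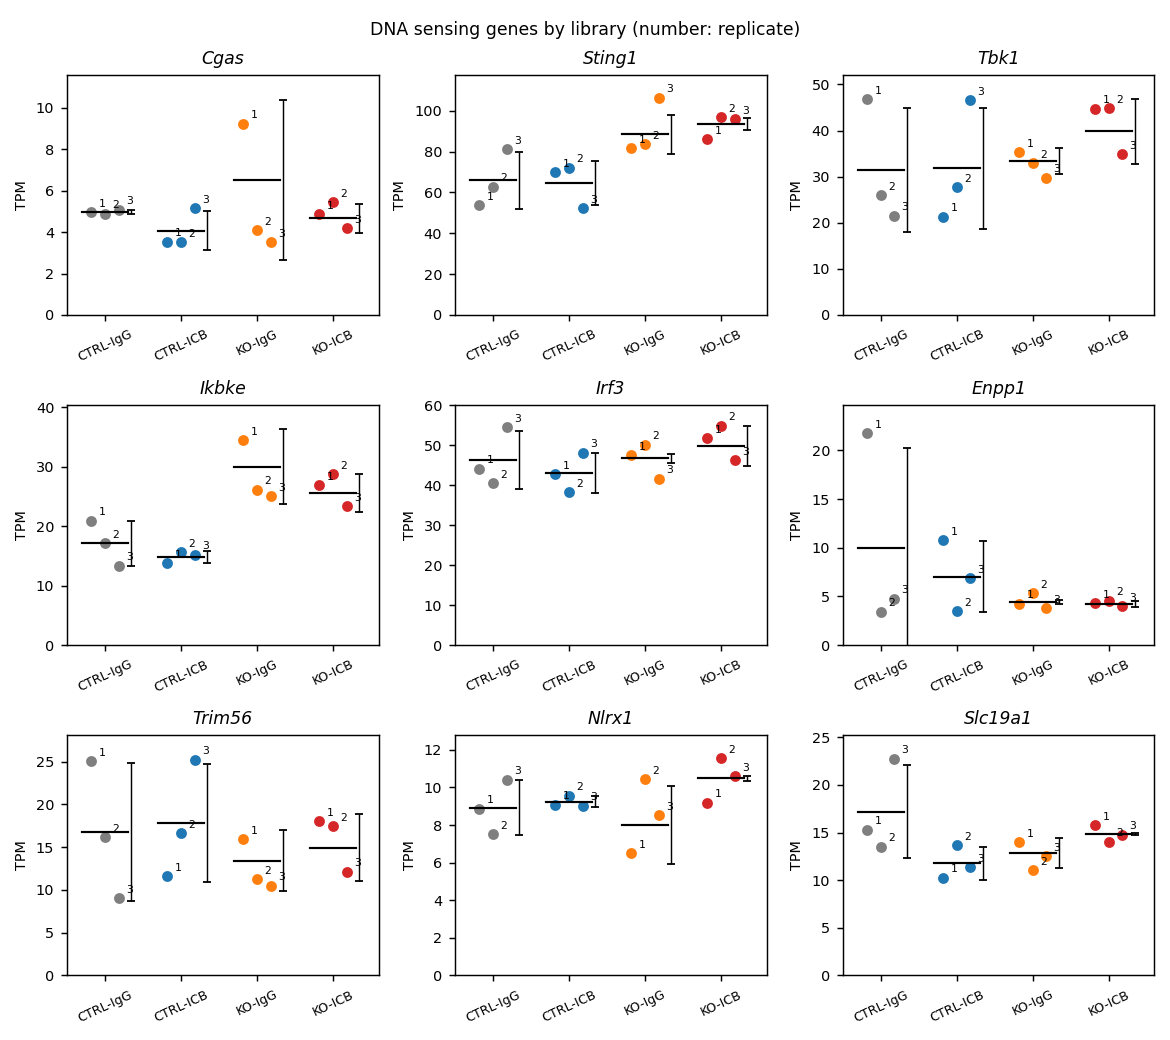
TPM of the 9 genes in each of the 12 libraries, by group, with the replicate number beside each point. Horizontal lines are group means and bars the SD over samples, with near-identical libraries averaged first (3 samples in each CTRL group, 2 in each KO group). Ikbke and Sting1 are the genes in which every KO point lies above every CTRL point.

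The axis was uneven in level. On the TPM scale, over the 10 samples, the adaptor Sting1 was the most abundant with a median of 76.6 TPM, followed by Irf3 at 46.1 TPM, Tbk1 at 33.1 TPM and Ikbke at 19.1 TPM. Trim56 followed at 16.0 TPM, Slc19a1 at 13.8 TPM and Nlrx1 at 9.28 TPM. The sensor Cgas and the cGAMP hydrolase Enpp1 were lowest, at 4.92 and 4.50 TPM. Sting1 lay above Irf3 and Tbk1 above Ikbke in all 10 samples, whereas Ikbke lay above Trim56 in 7, Trim56 above Slc19a1 in 7 and Cgas above Enpp1 in 6, so these neighbours did not keep their order. Irf3 varied least, with a coefficient of variation of 11.1% and 1.42-fold between its lowest and highest sample, and Enpp1 varied most, at 83.0% and 6.33-fold.

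Cgas, the DNA sensor (GRCm38 chromosome 9, 78430526 to 78443237, minus strand), was low in every group. CTRL tumours held 4.96, 4.88 and 5.09 TPM under IgG, in replicate order, and 3.54, 3.52 and 5.15 TPM under ICB. KO tumours held 9.23, 4.08 and 3.51 TPM under IgG and 4.86, 5.45 and 4.18 TPM under ICB. KO-IgG replicate 1, the library with little Epcam, was the only one above 6 TPM, and the groups overlapped. Averaged over both treatments, the log2 fold change of KO against CTRL, a difference of log2(TPM + 1), was 0.20 ± 0.25 (SE; limma adjusted p = 0.80). Without KO-IgG replicate 1 it was -0.07 (limma adjusted p = 0.88).

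Sting1, the cGAMP receptor and adaptor, which the annotation lists by its older symbol Tmem173, stood higher in every KO sample than in any CTRL sample. CTRL tumours held 53.8, 62.8 and 81.1 TPM under IgG, in replicate order, and 69.9, 72.04 and 52.2 TPM under ICB. KO tumours held 81.8, 83.8 and 106 TPM under IgG and 86.2, 96.9 and 95.8 TPM under ICB. The KO and CTRL libraries did not overlap, although KO-IgG replicate 1 and CTRL-IgG replicate 3 were less than 1 TPM apart. The mean was 91.0 ± 6.44 TPM in KO (SD, n = 4) and 65.3 ± 11.2 TPM in CTRL (n = 6). The log2 fold change of 0.49 ± 0.16 (SE) did not pass the test over all genes (limma adjusted p = 0.29).

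The kinase pair differed from each other in pattern. Ikbke, which encodes IKK epsilon (chromosome 1, 131254343 to 131279606, minus strand), measured 20.9, 17.2 and 13.3 TPM under IgG and 13.8, 15.6 and 15.3 TPM under ICB in CTRL tumours. KO tumours held 34.5, 26.2 and 25.1 TPM under IgG and 26.9, 28.7 and 23.4 TPM under ICB. All KO libraries lay above all CTRL libraries, and KO-IgG replicate 1 was the highest. The mean was 27.8 ± 4.78 TPM in KO (SD, n = 4) and 16.0 ± 2.78 TPM in CTRL (n = 6). The log2 fold change of 0.76 ± 0.18 (SE) did not pass either (limma adjusted p = 0.16). Over the 12 libraries, which count the near-identical ones separately, Ikbke passed the test with a log2 fold change of 0.75 (limma adjusted p = 0.0226), and with the replicate number as a block in those 12 it passed as well (adjusted p = 0.0403).

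Tbk1 (chromosome 10, 121546455 to 121586787, minus strand) split the CTRL tumours instead. CTRL tumours held 46.8, 26.03 and 21.6 TPM under IgG, in replicate order, and 21.4, 27.7 and 46.6 TPM under ICB. KO tumours held 35.3, 32.9 and 29.7 TPM under IgG and 44.7, 44.9 and 34.9 TPM under ICB. The highest and the lowest library both belonged to CTRL, and the KO values lay between them. KO and CTRL differed by 0.27 ± 0.27 on the log2(TPM + 1) scale (SE; limma adjusted p = 0.75). The ratio of Ikbke to Tbk1 within a library, which does not depend on the scaling of TPM, ran from 0.327 to 0.660 in CTRL libraries and from 0.602 to 0.976 in KO libraries. KO-ICB replicates 1 (0.602) and 2 (0.641) lay inside the CTRL range. KO-ICB replicate 3, at 0.671, lay just above it, and the 3 KO-IgG libraries stood at 0.796 to 0.976.

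The promoters of these kinases and of the sensor are shown because the kinase genes, relatives in protein, differ in base composition at the start site and in their values across KO and CTRL. Each line gives 250 bases before to 50 bases after the RefSeq start on GRCm38.p6, minus strand, 5′ to 3′. Capitals mark the matches found to any of the motifs listed next.
Ikbke, chr1:131279514-131279813: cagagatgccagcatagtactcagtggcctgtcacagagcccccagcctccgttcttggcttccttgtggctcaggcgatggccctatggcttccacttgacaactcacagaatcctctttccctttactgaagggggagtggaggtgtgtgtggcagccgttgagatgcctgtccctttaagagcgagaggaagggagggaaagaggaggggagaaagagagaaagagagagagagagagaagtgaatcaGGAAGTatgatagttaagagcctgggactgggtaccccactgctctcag
Tbk1, chr10:121586745-121587044: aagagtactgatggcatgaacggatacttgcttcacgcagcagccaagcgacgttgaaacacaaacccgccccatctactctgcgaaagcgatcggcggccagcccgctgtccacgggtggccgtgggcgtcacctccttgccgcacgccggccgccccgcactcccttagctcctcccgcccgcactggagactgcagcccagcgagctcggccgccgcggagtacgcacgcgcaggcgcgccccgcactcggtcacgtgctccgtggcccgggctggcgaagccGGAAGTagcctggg
Cgas, chr9:78443188-78443487: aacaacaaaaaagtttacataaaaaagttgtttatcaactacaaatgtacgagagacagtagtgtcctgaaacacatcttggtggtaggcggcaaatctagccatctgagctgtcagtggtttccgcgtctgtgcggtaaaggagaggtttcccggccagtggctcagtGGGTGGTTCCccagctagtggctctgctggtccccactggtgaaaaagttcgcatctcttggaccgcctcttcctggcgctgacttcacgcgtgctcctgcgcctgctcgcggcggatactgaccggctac
GC content was 54.0% for Ikbke, 69.0% for Tbk1 and 53.0% for Cgas.

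Motifs were searched on both strands in the 10 RefSeq promoter windows found for 8 of the 9 genes. The interferon-stimulated response element (GAAA, any 2 bases, GAAA) is in 3.44% of 32851 promoter windows of the same length and was in 0 of the 10. The GAS element, TTCNNNGAA, is in 8.3% of all windows and was in both overlapping windows of Nlrx1. A form of the NF-kB site (GGG, any 3 bases, TTCC) is in 5.56% and was found in Cgas at -81 and in Enpp1 at -103. The core GGAAGT, which ETS factors can bind, is in 23.8% of all windows and was in 8 of the 10, belonging to 7 of the 8 genes, every one but Cgas. It began at 2 after the start in Ikbke and at 37 in Tbk1. That core was chosen after the sequences had been read, so its count is a description, and a match does not show that a factor binds.

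Irf3, the transcription factor that TBK1 phosphorylates (chromosome 7, 44997648 to 45002848, plus strand), was the steadiest of the 9. CTRL tumours held 44.1, 40.5 and 54.6 TPM under IgG, in replicate order, and 42.8, 38.3 and 48.1 TPM under ICB. KO tumours held 47.5, 50.1 and 41.7 TPM under IgG and 51.8, 54.9 and 46.3 TPM under ICB. The groups overlapped, and the log2 fold change of KO against CTRL was 0.11 ± 0.14 (SE; limma adjusted p = 0.80). Irf3 overlaps Bcl2l12 on the other strand over 1065 bases, and Bcl2l12 stood at 6.91 to 17.5 TPM. Whether strand was used in counting is not given in the sources used here.

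**Figure D2:**
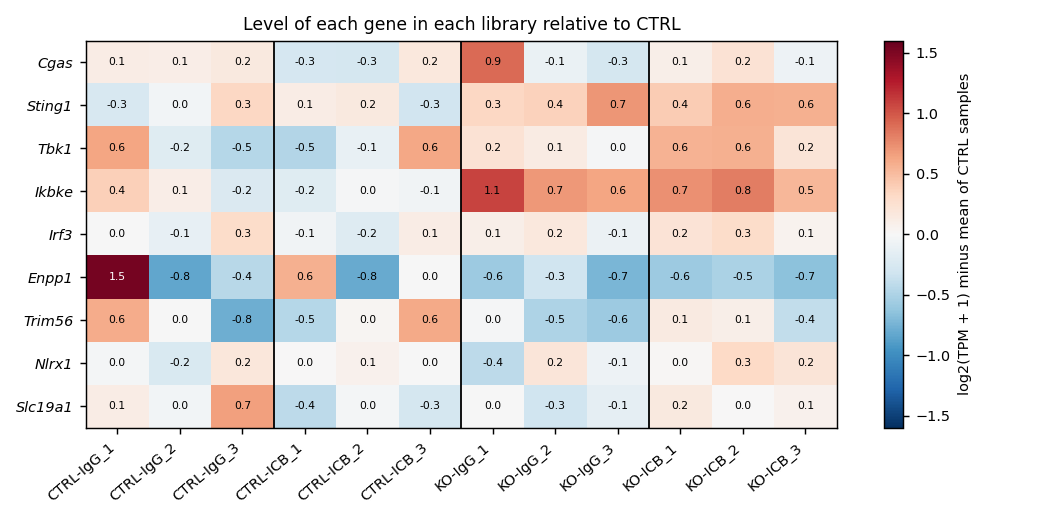
Level of each gene in each library as log2(TPM + 1) minus the mean over the 6 CTRL samples, with the value written in each cell. Red is higher and blue lower than that mean. Ikbke and Sting1 are red across all 6 KO libraries, while Tbk1 and Trim56 are high together in CTRL-IgG replicate 1 and CTRL-ICB replicate 3.

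The regulators of cGAMP outside the cell were low or varied between tumours. Enpp1, a membrane enzyme that hydrolyses extracellular cGAMP (chromosome 10, 24637914 to 24712159, minus strand), measured 21.8, 3.44 and 4.79 TPM under IgG and 10.8, 3.51 and 6.86 TPM under ICB in CTRL tumours. It stood at 3.78 to 5.35 TPM in the 6 KO libraries. The KO range lay inside the CTRL range, with 2 CTRL tumours above 10 TPM. The means were 4.32 ± 0.239 TPM in KO (SD, n = 4) against 8.52 ± 7.04 TPM in CTRL (n = 6). The log2 fold change was -0.57 ± 0.45 (SE; limma adjusted p = 0.67), and -0.21 without CTRL-IgG replicate 1. The sum of 6 fibroblast markers was 1408 TPM in that tumour and 3124 TPM in CTRL-ICB replicate 1, the next highest in Enpp1. CTRL-IgG replicate 3 had the second highest sum, 2602 TPM, with Enpp1 at 4.79 TPM. The sum was 525 to 3124 TPM over all CTRL libraries and 302 to 759 TPM in KO libraries. Within KO it was 302 to 417 TPM under IgG and 722 to 759 TPM under ICB, with Enpp1 at 3.78 to 5.35 and 4.01 to 4.58 TPM. The part of fibroblasts in these values was not tested.

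Slc19a1, the reduced folate carrier, which in human cells also imports cyclic dinucleotides (chromosome 10, 77032241 to 77061002, plus strand), ran from 10.3 to 22.7 TPM. It measured 15.3, 13.5 and 22.7 TPM under IgG and 10.3, 13.7 and 11.4 TPM under ICB in CTRL tumours, against 13.98, 11.03 and 12.5 TPM under IgG and 15.8, 14.03 and 14.8 TPM under ICB in KO tumours. The ICB mean was below the IgG mean in CTRL and above it in KO. The log2 fold change of ICB against IgG was -0.49 ± 0.24 (SE) in CTRL and 0.19 ± 0.30 in KO, and the interaction, 0.68 ± 0.38, did not pass (limma adjusted p = 1.00). Averaged over both treatments KO and CTRL differed by -0.02 ± 0.19 (limma adjusted p = 0.98), a direction that turned under quantile normalisation and median centring (both 0.04). The gene overlaps Col18a1 on the other strand over 8825 bases, and Col18a1 stood at 39.9 to 173 TPM.

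Trim56 and Nlrx1 act on STING itself. Trim56, a ubiquitin ligase that modifies cGAS and STING (chromosome 5, 137105644 to 137116209, minus strand), ran from 9.01 to 25.2 TPM, and both ends were CTRL libraries. CTRL-IgG replicate 1 (25.1 TPM) and CTRL-ICB replicate 3 (25.2 TPM) were the highest, the same tumours that were highest in Tbk1. KO libraries stood at 10.5 to 18.01 TPM, inside the CTRL range, with a log2 fold change of -0.21 ± 0.31 (SE; limma adjusted p = 0.84).

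Nlrx1, a mitochondrial protein reported to keep STING from TBK1 (chromosome 9, 44252717 to 44268599, minus strand), ran from 6.52 TPM in KO-IgG replicate 1 to 11.6 TPM in KO-ICB replicate 2. It stood at 7.51 to 10.4 TPM in CTRL libraries, inside the KO range. KO and CTRL differed by 0.01 ± 0.18 (log2 fold change, SE; limma adjusted p = 0.99). After averaging, both KO-ICB samples (10.4 and 10.6 TPM) lay above the 3 CTRL-ICB samples (9.03 to 9.57 TPM), and the log2 fold change under ICB was 0.17 ± 0.26 (limma adjusted p = 0.91).

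**Figure D3:**
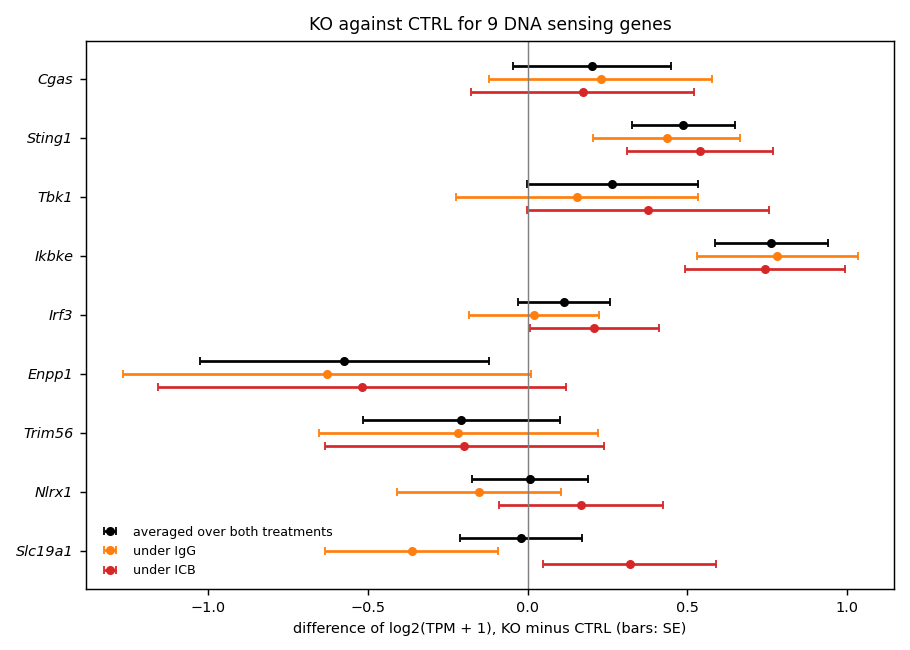
Difference of log2(TPM + 1) between KO and CTRL for each of the 9 genes, with bars for the SE from limma, averaged over both treatments (black), under IgG (orange) and under ICB (red). Ikbke and Sting1 lie to the right of 0 in all 3 comparisons with bars that do not reach 0, and Enpp1 has the widest bars.

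Over the axis, KO and CTRL differed in no gene past the threshold. Averaged over both treatments limma called 0 of the 9 genes at an adjusted p of 0.05, beside 0.108% of all genes tested (15 of 13886), and 2 of the 9 had an unadjusted p under 0.05, Ikbke and Sting1, beside 11.5% of all genes. In these 2 every KO sample lay above every CTRL sample, which held for 2.05% of all genes tested, and in none of the 9 did every KO sample lie below, which held for 1.52%. The log2 fold change was positive in 6 of the 9, with a median of 0.11 against -0.03 over all genes. Over the 12 libraries limma called 1 of the 9, Ikbke, beside 449 genes in all, and with the replicate block 1 of the 9, Ikbke, beside 259. Without KO-IgG replicate 1 it called 273 genes and 0 of the 9.

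Within each treatment the same genes had the largest positive differences of the 9. Under IgG, Ikbke differed by 0.78 ± 0.25 (SE; limma adjusted p = 0.77) and Sting1 by 0.43 ± 0.23 (limma adjusted p = 1.00). Under ICB, Ikbke differed by 0.74 ± 0.25 (limma adjusted p = 0.52) and Sting1 by 0.54 ± 0.23 (limma adjusted p = 0.61). Limma called 0 of the 9 under IgG, beside 0% of all genes, and 0 of the 9 under ICB, beside 0.0072% (1 gene). At an unadjusted p under 0.05 there was 1 of the 9 under IgG, beside 5.15% of all genes, and 2 under ICB, beside 7.98%. With 2 KO samples in each treatment, these values carry wide errors.

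Ikbke and Sting1 kept their direction under every setting tried. For Ikbke the log2 fold change stayed between 0.66 and 0.87 when each sample was left out in turn, and that of Sting1 between 0.41 and 0.57. Without KO-IgG replicate 1, the sample with little Epcam, Ikbke differed by 0.66 (limma adjusted p = 0.12) and Sting1 by 0.54 (limma adjusted p = 0.16). Under the other settings Sting1 ran from 0.49 to 0.55, with an adjusted p of 0.0703 over the 12 libraries as its lowest.

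**Figure D4:**
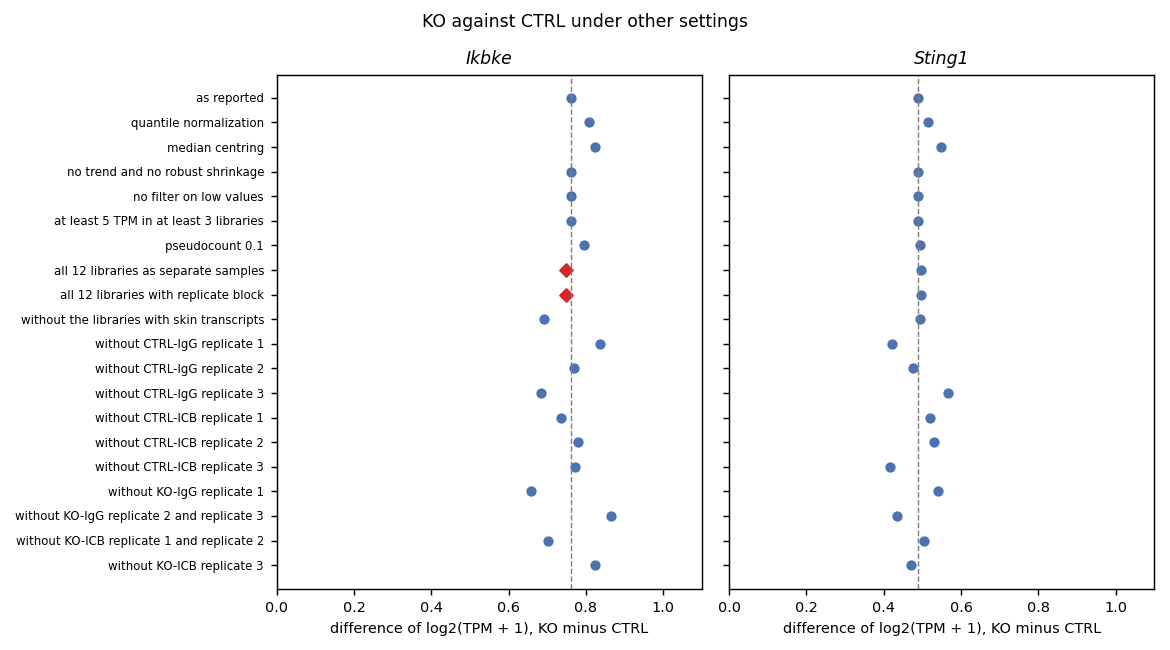
Difference of log2(TPM + 1) between KO and CTRL for Ikbke (left) and Sting1 (right) as reported (dashed line) and under each other setting. Red diamonds pass an adjusted p of 0.05 in limma, and they are the 2 fits of Ikbke over 12 libraries. All points lie above 0.

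Summed markers of T and NK cells, like Ikbke and Sting1, were higher in all KO than in all CTRL libraries. Limma nevertheless called 0 of the 5 T cell and 0 of the 3 NK cell markers (5 and 3 at an unadjusted p under 0.05). Over the 12 libraries it called 1 T cell marker (Cd3g) and 2 NK cell markers (Klre1 and Ncr1), all higher in KO, beside 3.23% of all genes. The sum of 5 T cell markers was 48.7 to 129 TPM in KO libraries and 20.9 to 38.5 TPM in CTRL libraries, and the sum of 3 NK cell markers was 11.2 to 17.0 TPM against 2.501 to 5.08 TPM. KO-IgG replicate 1, highest in Ikbke and Cgas but lowest of the KO libraries in Sting1, had the highest T cell sum and the highest sum of 5 macrophage markers (2328 TPM, against 504 to 1454 TPM in the other libraries). CTRL-IgG replicate 3, the highest CTRL library in Sting1, had the lowest T cell sum (20.9 TPM). The sum of 5 neutrophil markers was 28.0 to 111 TPM in KO and 168 to 881 TPM in CTRL. Averaged over both treatments, limma called 1 of the 4 neutrophil markers tested, lower in KO, beside 0.108% of all genes. Over the 12 libraries it called 2, S100a8 and S100a9, both lower. The 6 epithelial markers summed to 1440 to 5112 TPM in KO and 1998 to 4568 TPM in CTRL, and the 3 B cell markers, each at 0 in some library, to at most 1.03 TPM. No T cell, NK cell or macrophage marker was at 0 in any library, and 1 of the 5 neutrophil markers was at 0 in some KO library. In bulk tumours more cells of a type and more RNA per cell cannot be told apart, and the part of these cells in the values of the axis was not tested.

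Checkpoint antibodies left the axis without a called change in either genotype. In CTRL the log2 fold changes of ICB against IgG ran from -0.49 (Slc19a1) to 0.13 (Trim56), and limma called 0 of the 9, beside 0% of all genes tested. In KO they ran from -0.31 (Cgas) to 0.37 (Nlrx1), and limma called 0 of the 9, beside 0%. At an unadjusted p under 0.05 there were 0 of the 9 in either, beside 1.27% of all genes in CTRL and 3.19% in KO. The interaction ran from -0.06 (Cgas) to 0.68 (Slc19a1) with SEs of 0.29 to 0.90, and limma called 0 of the 9, beside 0% of all genes, with 0 at an unadjusted p under 0.05, beside 1.41%. SEs of that size leave room for sizeable differences that were not detectable with these samples.

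Across the 4 groups, neighbours in the order of mean levels mostly overlapped. Sting1 ran from KO-ICB (93.6 TPM) through KO-IgG (88.4 TPM) to CTRL-IgG (65.9 TPM) and CTRL-ICB (64.7 TPM), and only the step from KO-IgG to CTRL-IgG had samples that did not overlap. Ikbke ran from KO-IgG (30.1 TPM) through KO-ICB (25.6 TPM) to CTRL-IgG (17.1 TPM) and CTRL-ICB (14.9 TPM), and only the step from KO-ICB to CTRL-IgG was free of overlap. For Nlrx1 the step from KO-ICB to CTRL-ICB and for Slc19a1 the step from KO-ICB to KO-IgG did not overlap. For Cgas, Tbk1, Irf3, Enpp1 and Trim56, all neighbouring groups overlapped.

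The genes whose levels followed each member most closely were found by Pearson's correlation of log2(TPM + 1) over the 10 samples, as a description picked from all genes tested and without a test. Ikbke was followed by Fut7, a fucosyltransferase of leukocytes (r = 0.97), Klri1, an NK cell receptor (0.95), and Ubash3a, a regulator of T cell receptor signalling (0.95). All of these were low, at 0.390 to 2.08 TPM for Fut7, 0.216 to 3.94 TPM for Klri1 and 0.714 to 2.96 TPM for Ubash3a. Sting1 was followed by Tle5, a Groucho-related corepressor (0.98), Nfkbil1 (0.95) and Vamp8, a vesicle SNARE protein (0.95). Cgas was followed by Pdlim2 (0.98), Ptger4, a prostaglandin E2 receptor (0.97), and Zpr1 (0.94), and without KO-IgG replicate 1 these were 0.93, 0.90 and 0.78.

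The other members had their own companions. Tbk1 was followed by Kmt2c, a histone methyltransferase (0.97), Htt, which encodes huntingtin (0.97), and Pfkfb2, a regulator of glycolysis (0.97). Irf3 was followed by Arpc5l (0.91), Pa2g4 (0.88) and Dus1l (0.88). Enpp1 was followed by Amz2 (0.93), the matrix proteoglycan gene Podn (0.93, at 0.626 to 2.68 TPM) and Arpc1a (0.92). Trim56 was followed by Gm38394 and a transcript listed without a symbol, which had the same values (0.99), and by Nr1d2, a clock repressor (0.99). Nlrx1 was followed by Ctxn1 (0.98), AW209491 (0.97) and the nuclear receptor gene Nr2f6 (0.96). Slc19a1 was followed by E130309D02Rik (0.91), Syngr2 (0.90) and Slc12a8 (0.87, at 0.563 to 1.77 TPM). No 2 of the 9 shared a companion among the few listed. So few were kept from all genes tested that this cannot show whether members varied together.

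Around the axis, 10 lists of related genes held 141 genes, of which 130 were tested, and limma called 1 of them in the averaged comparison, Ccl5, beside 0.108% of all genes. At an unadjusted p under 0.05 there were 26 of the 130, beside 11.5% of all genes, and 58 were positive, beside 46.2%. The same shares of all genes are the background for each single list. Ccl5, a chemokine for T and NK cells that IRF3 can switch on, rose from 44.4 ± 15.3 TPM in CTRL (SD, n = 6) to 178 ± 39.8 TPM in KO (n = 4), a log2 fold change of 2.03 ± 0.28 (SE; limma adjusted p = 0.0422). Its fold change ran from 1.85 to 2.15 over the 19 other settings, but the call was lost in 12 of them, with adjusted p-values of up to 0.26. These were quantile normalisation (0.074), median centring (0.076), no trend or robust shrinkage (0.052), no filter (0.077) and 8 of the 10 fits that left out a sample, all but those without CTRL-IgG replicate 3 or KO-IgG replicate 1. Ccl5 is one of 10 genes of the IRF3 and interferon output, of which 8 were tested, 8 had a positive fold change and the median was 0.91. At an unadjusted p under 0.05 in limma there were 7 of the 8, beside 11.5% of all genes. Ifnb1, which encodes interferon beta, stood at 0 to 0.934 TPM and was not tested. Ifit3, which interferon induces, was at 67.1 ± 28.7 TPM in KO against 24.9 ± 3.80 TPM in CTRL (limma adjusted p = 0.16), and KO-IgG replicate 1, at 25.2 TPM, lay inside the CTRL range while the other KO libraries held 71.5 to 92.7 TPM. Without KO-IgG replicate 1 the median of the 8 was 1.27. Over the 12 libraries limma called 5 of the 8 (Ccl5, Ifit2, Ifit3, Isg15 and Oasl1), beside 3.23% of all genes.

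**Figure D5:**
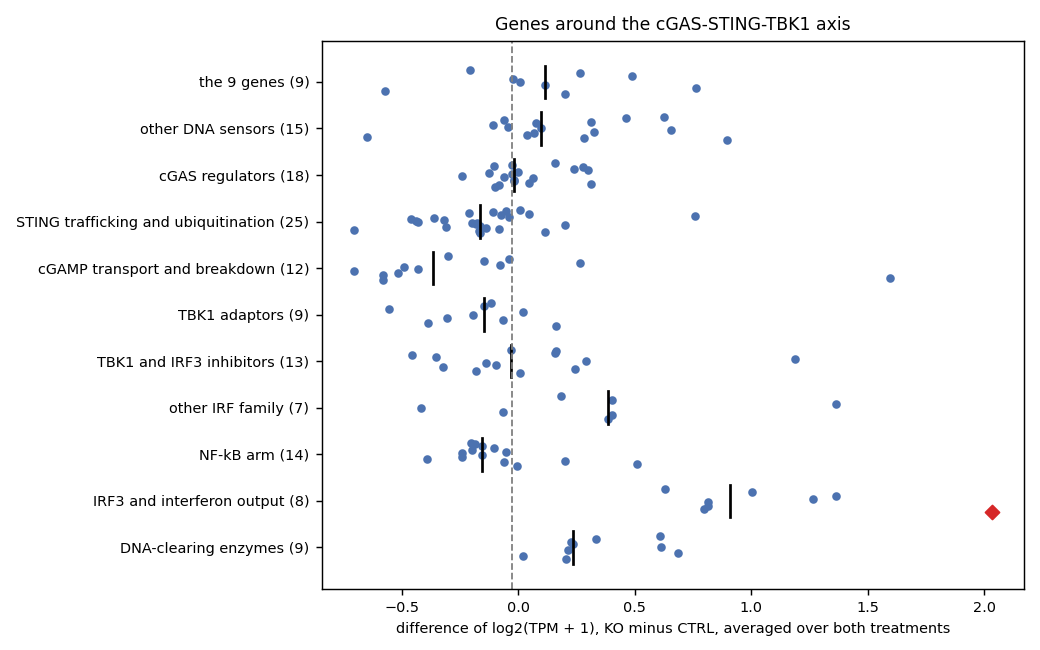
Difference of log2(TPM + 1) between KO and CTRL, averaged over both treatments, for each tested gene of the axis and of 10 related lists, with the number of genes tested in brackets. Black bars are list medians, the dashed line is the median of all genes (-0.03), and the red diamond is Ccl5, the gene that passed the test.

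Sensors and enzymes upstream had positive medians. Of 15 other DNA sensors, 11 were positive with a median of 0.10 and limma called 0. Of the 15, 6 had an unadjusted p under 0.05, and these included Dhx36, which was lower in KO (-0.65 ± 0.21, SE). Zbp1, a sensor of Z-form nucleic acid, stood at 232 ± 59.4 TPM in KO against 147 ± 18.1 TPM in CTRL (limma adjusted p = 0.20). In KO-IgG replicate 1 Zbp1 was at 152 TPM, inside the CTRL range of 121 to 174 TPM, while the other KO libraries held 236 to 295 TPM. Xrcc6, the Ku70 subunit, stood at 41.6 ± 2.01 TPM in KO against 30.7 ± 8.07 TPM in CTRL (limma adjusted p = 0.25). CTRL libraries held 32.2 to 42.7 TPM under IgG and 21.7 to 25.9 TPM under ICB, against 38.6 to 43.3 TPM in KO libraries. KO and CTRL differed by 0.18 ± 0.20 (SE) under IgG and by 0.75 ± 0.20 under ICB, and limma called neither. Of the DNA-clearing enzymes, all 9 tested were positive with a median of 0.24, and limma called 0, with 2 at an unadjusted p under 0.05. Trex1 itself differed by 0.61 ± 0.16 (SE; limma adjusted p = 0.18), and Rnaseh2a, the catalytic subunit of RNase H2, by 0.61 ± 0.21 (limma adjusted p = 0.31). Rnaseh2a was at 46.0 TPM in KO-IgG replicate 1, inside the CTRL range of 41.9 to 59.7 TPM. The other KO libraries held 86.1 to 99.7 TPM.

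Lists that handle cGAS, cGAMP and STING had medians at or below that of all genes, apart from cGAS regulators. Of 18 cGAS regulators tested, 8 were positive with a median of -0.02, and limma called 0, with 0 at an unadjusted p under 0.05. Trim14 differed by 0.30 ± 0.20 (SE) and Banf1, a protein that shields nuclear DNA from cGAS, by 0.31 ± 0.20. Of 12 genes of cGAMP transport and breakdown, 2 were positive with a median of -0.37, and limma called 0, with 4 at an unadjusted p under 0.05. Lrrc8a, the common subunit of volume-regulated anion channels that carry cGAMP, stood at 8.08 ± 0.744 TPM in KO against 11.98 ± 0.915 TPM in CTRL without overlap (limma adjusted p = 0.26). Enpp3, a relative of Enpp1 that is also made by mast cells and basophils, stood at 4.51 ± 3.04 against 0.557 ± 0.314 TPM (limma adjusted p = 0.19). In KO-IgG replicate 1 Enpp3 was at 0.573 TPM, inside the CTRL range of 0.122 to 0.860 TPM. The other KO libraries held 3.66 to 7.98 TPM.

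Of 25 genes of STING trafficking and ubiquitination, 5 were positive with a median of -0.16, and limma called 0, with 3 at an unadjusted p under 0.05. Insig1, a sterol-regulated protein of the endoplasmic reticulum, stood at 28.0 ± 9.04 TPM in KO against 46.4 ± 12.7 TPM in CTRL (limma adjusted p = 0.32). Surf4, a cargo receptor that returns STING to the endoplasmic reticulum, stood at 84.6 ± 16.3 against 114 ± 14.2 TPM (limma adjusted p = 0.36). In KO-IgG replicate 1 Surf4 was at 106 TPM, inside the CTRL range of 95.7 to 134 TPM. The other KO libraries held 64.9 to 84.3 TPM.

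Downstream of STING the lists divided. Of 9 TBK1 adaptors, 2 were positive with a median of -0.15, and limma called 0, with 0 at an unadjusted p under 0.05. Tbkbp1 (-0.56 ± 0.38, SE) and Optn (-0.30 ± 0.22) had the smallest p. Tbkbp1 was at 23.2 TPM in KO-IgG replicate 1, above all CTRL libraries (6.51 to 16.1 TPM). The other KO libraries held 3.20 to 5.20 TPM, below all CTRL libraries. Without KO-IgG replicate 1 the log2 fold change of Tbkbp1 was -1.09. Of 13 inhibitors of TBK1 and IRF3, 6 were positive with a median of -0.03, and limma called 0, with 1 at an unadjusted p under 0.05. That gene was Socs1, a feedback inhibitor of cytokine signalling, at 35.5 ± 9.34 TPM in KO against 15.0 ± 4.24 TPM in CTRL without overlap (limma adjusted p = 0.13), and Rbck1 differed by 0.29 ± 0.15.

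Of 7 other IRF genes tested, 5 were positive with a median of 0.38, and limma called 0, with 2 at an unadjusted p under 0.05. Irf7, the interferon-induced relative of Irf3, stood at 295 ± 146 TPM in KO against 97.4 ± 8.92 TPM in CTRL (limma adjusted p = 0.18). KO-IgG replicate 1 stood apart at 81.2 TPM, below the 87.2 to 113 TPM of the CTRL libraries, while the other KO libraries held 319 to 392 TPM, and without it limma called Irf7. Irf1 differed by 0.38 ± 0.17 (SE). Of 14 genes of the NF-kB arm, 2 were positive with a median of -0.16, and limma called 0, with 1 at an unadjusted p under 0.05. That gene was Ikbkb, which encodes IKK beta, the kinase of the canonical NF-kB pathway and a relative of IKK epsilon, at 48.5 ± 9.70 TPM in KO against 33.6 ± 4.94 TPM in CTRL (limma adjusted p = 0.29), and Map3k7 differed by -0.39 ± 0.24. Over the 10 lists limma called 10 of 130 genes higher and 0 lower without KO-IgG replicate 1, where it called 1.97% of all genes. Over the 12 libraries it called 12 higher and 0 lower, beside 3.23% of all genes.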

How the data were processed

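TPM values per gene symbol and library were computed and deposited by the authors. Kallisto and the build GRCm38 were used, per the submitters' processing notes; neither its version nor its transcript set or strand setting is given in the sources used here. TPM keeps no depth, so no counting interval is given. Columns were matched to groups by the titles.

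Within a group, libraries were averaged where their log2 ratios, taken over genes above 300 TPM, had a robust SD under 0.1. Genes reaching 1 TPM in 3 or more libraries were tested as log2(TPM + 1) in limma 3.58.1 (R 4.3.3) with 4 group means, intensity trend and robust shrinkage, and Benjamini-Hochberg adjustment over 13886 genes at 0.05. The fit was tested on simulated data with differences larger than any found in the axis, so that test does not cover differences of their size. A pseudocount of 1 understates changes of low genes. The labels number 3 libraries in each group and give no batch. The p-values measure the spread between the 10 samples, taken as separate tumours, with 2 samples in each KO group. Whether the near-identical libraries came from separate tumours cannot be told.

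Named genes are the 9 members, Trex1, every called gene and the 2 genes with the smallest p of each related list in the averaged comparison, and the 3 genes most correlated with each member. Ifnb1, Isg15, Oasl1, Ifit2, Dhx36, overlapping genes and marker genes were added after their values were seen. The members, lists, tests and alternatives were chosen with earlier results of these data known. Coordinates are from GENCODE M21 and promoters from RefSeq (GRCm38.p6).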

Additional observations from a re-analysis of the deposited data

How the results depend on the processing

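No setting turned the direction of Ikbke or Sting1 between KO and CTRL in the averaged comparison. Averaged over both treatments limma called 0 genes after quantile normalisation, 7 after median centring (4 higher) and 9 without the libraries with skin transcripts, against 15 as reported. The 12 libraries as separate samples gave 449 (270 higher) and 1 member, Ikbke; with the replicate block they gave 259 (147 higher) and 1 member, Ikbke. The labels do not say whether replicate numbers pair tumours. Of 18 same-number pairs, with correlations of -0.36 to 0.27, 5 were above 0.1, which does not settle it. The 12-library fits count near-identical libraries separately.

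Under IgG, where 0 were called, there were 10 without the filter, 16 over 12 libraries, 2 with the block and 1 with only the groups compared. Under ICB, against 1, there were 4 without trend and robust shrinkage, 5 without the filter, 40 over 12 libraries, 8 with the block, 74 with only the groups compared, and 0 with a minimum of 5 TPM, with a pseudocount of 0.1 or without the skin libraries. For ICB in KO, against 0, there were 1 after quantile normalisation, 1 after median centring, 2 without trend, 13 without the filter, 3 over 12 libraries and 2 with the block. For the interaction, against 0, there were 9 without the filter and 1 over 12 libraries.

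Leaving out each sample gave 0 to 273 genes averaged (highest without KO-IgG replicate 1), 0 to 44 under IgG, 0 to 15 under ICB, 0 to 0 for ICB in CTRL, 0 to 221 for ICB in KO and 0 to 7 for the interaction (highest without KO-IgG replicates 2 and 3), with 0 members called in each.

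Some directions turned. Averaged, Slc19a1 was 0.042 after quantile normalisation, 0.040 after median centring and 0.074 without the skin libraries. Sting1 for ICB in CTRL was 0.00025 after quantile normalisation and 0.28 without the skin libraries, and its interaction -0.20 without them. The Ikbke interaction was 0.070 over 12 libraries, 0.070 with the block and 0.14 without the skin libraries. Leaving out samples, Cgas ran from -0.073 to 0.47, Nlrx1 from -0.11 to 0.13 and Slc19a1 from -0.094 to 0.083 (averaged). Sting1 ran from -0.15 to 0.14 for ICB in CTRL, from -0.021 to 0.19 for ICB in KO and from -0.052 to 0.24 for the interaction, and Ikbke from -0.25 to 0.17 for the interaction. The causes were not tested. TPM keeps no depth, so the precision of low genes such as Cgas and Enpp1 cannot be given.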
